A study of Cyprinus carpio with 2 samples.

Results

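The DNA replication machinery was followed in the immature testis and ovary of juvenile common carp (Cyprinus carpio). Its members were the unigenes, numbered transcript units that each carry a protein and a gene name, whose first gene symbol names a subunit of the MCM helicase, the origin recognition complex, GINS, replication factor C, RPA, DNA polymerase alpha, delta or epsilon, primase, PCNA, a DNA ligase, ribonucleotide reductase or a topoisomerase. This gave 93 unigenes with 48 symbols among 22634 unigenes. Of these, 91 have a row in the authors' expression table, and mcm3 (Unigene_72075) and mcm6 (Unigene_69885) come from the authors' list for testis alone. The symbol pattern also caught 11 unigenes of mcm3ap, which is named for binding the MCM3 protein and is also an mRNA export factor but is no part of the helicase. These 11 are included in all totals of the members and of the machinery, and are described apart below.

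Replication starts where the origin recognition complex binds DNA and, with Cdc6 and Cdt1, loads a ring of MCM subunits. Cdc45 and GINS turn that ring into the active helicase, polymerase alpha with primase lays primers, and polymerases delta and epsilon copy the strands, held by the PCNA clamp that replication factor C loads. RPA coats single strands, ligase joins fragments, topoisomerases release twist and ribonucleotide reductase makes the deoxynucleotides. In a gonad these genes serve the dividing germ and somatic cells and the round of replication before meiosis, and the growing oocyte also stores their transcripts for the cleavage divisions of the embryo. In the frog Xenopus, the helicase subunits Mcm3 and Mcm6 each have a maternal form, stored in the egg, and a zygotic form.

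RNA sequencing covered 1 testis library and 1 ovary library from juveniles at 110 to 130 days post hatch, per the labels, and RNA was extracted sample by sample. No treatment or genotype is given, and how many fish each library holds is not stated. The comparison asks which transcripts differ between the 2 immature gonads. In whole gonad tissue, fewer cells of a type and less RNA per cell cannot be told apart.

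The tables held 1926860 testis reads and 4311799 ovary reads, sums over the annotated unigenes and not library depths. A read here is 1 step of the deposited values. Since each tissue has 1 library, differences could not be checked against replicates and none was tested. Intervals are exact Clopper-Pearson 95% intervals, of a ratio of reads or of a share, and hold nothing but counting error. Neither value column names its tissue, and testis and ovary were assigned from the titles of the authors' lists, so an error there would exchange every direction. No unigene of the tables is listed at 0 in either library, hence transcripts found in 1 tissue alone may be missing. Unigene lengths were not used, so levels are not compared between genes.

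The median unigene had 0.75 testis reads per ovary read, and folds below, those of summed unigenes too, are relative to that median. The log2 differences add 1 deposited unit to both values and are also relative to the median. The added unit draws low unigenes toward equal deposited values. It thus understates their large differences and can overstate small ones toward testis. The direction of a small difference depends on taking the median as the reference. Under 4 scalings (the median, the deposited values, a trimmed mean of log ratios and equal total reads), 20 members were higher in testis throughout, 39 were higher in ovary throughout, and 34 changed direction. The 20 include mcm3 and mcm6, members through the authors' testis list alone. These counts were not taken over all unigenes, whose median log2 difference itself ran from -0.83 as deposited to 0.75 with equal total reads. They are therefore no result about the members.

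Most of the replication machinery lay near or below the median unigene, and a few members lay far out on both sides. Of the 93 members, 34 lay above that median and 59 below it, and their median log2 difference was -0.54. Over all unigenes that reached 5 units in either library it was -0.02, and 51.1% of those unigenes lay below the median. On this log2 scale, 9 members, or 9.68%, were higher in testis by 4-fold or more, where 13.8% of all unigenes were. Higher in ovary by that margin were 14 members, or 15.1%, where 11.2% of all unigenes were. These shares are not far from those of all unigenes. Without mcm3ap the other 82 members had 27 above the median and 55 below it, with a median log2 difference of -0.63. Of the 82, 6, or 7.32%, were then 4-fold higher in testis and 14, or 17.1%, in ovary. The counting interval excluded the median ratio toward testis for 21 of the 93 members, where 28.8% of all unigenes did so, and toward ovary for 43, where 31.5% did. Such exclusion depends on read depth, which was not matched between the members and all unigenes. With equal total reads the members' median log2 difference was 0.21, where the median of all unigenes was 0.75. The 4-fold counts were then 16 members in testis, where 23.2% of all unigenes were, and 7 in ovary, where 5.46% were. As deposited the members' median was -1.37, where that of all unigenes was -0.83, with 7 members in testis, where 6.14% of all unigenes were, and 28 in ovary, where 23.2% were.

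The 9 members at least 4-fold higher in testis were mcm6, mcm3, 1 unigene each of mcm2 and pole, 2 of mcm9 and 3 of mcm3ap. Of these, 4 had under 30 reads in all. The 14 on the ovary side were better covered, with at least 169 reads each. They comprised mcm3l, the 3 unigenes of mcm6l, mcm10, orc1, orc3, 2 of orc6, gins3, 1 of pole3, rfc3 and both unigenes of rrm2. All members had reads in both libraries, as every unigene listed did.

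**Figure D1:**
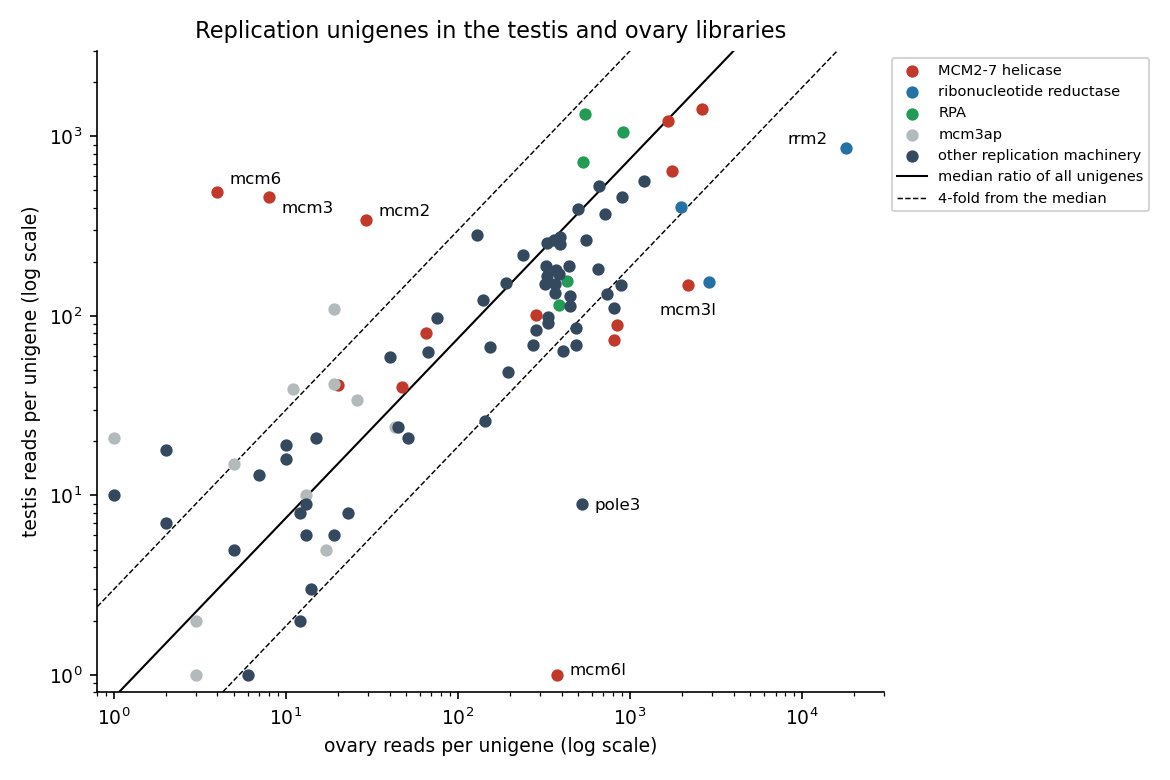
Testis reads against ovary reads for the 93 members, both on log axes, 1 point per unigene, coloured by role, with the median ratio of all unigenes and lines 4-fold from it. The mcm6, mcm3 and mcm2 points stand high on the left, with 341 to 490 testis reads, and mcm6l, pole3 and rrm2 lie below the lower line.

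The MCM helicase held the widest differences. It had 14 unigenes, 6 on the testis side of the median and 8 on the ovary side, ranging from -7.48 to 7.20 on the log2 scale. For mcm6 (Unigene_69885) there were 490 testis reads and 4 ovary reads, 163-fold higher in testis (95% interval 63.4 to 602). For mcm3 (Unigene_72075) there were 461 testis reads and 8 ovary reads, 76.8-fold higher in testis (95% interval 38.7 to 179). The authors listed both for being higher in testis, which fixed their direction before any count made here. One unigene of mcm2 (Unigene_71827), which is in neither of the authors' lists, was also higher in testis, with 341 testis reads and 29 ovary reads, 15.7-fold (95% interval 10.7 to 23.8).

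The related forms of mcm3 and mcm6 lay on the opposite side. Transcripts of mcm3l (Unigene_15053) had 148 testis reads and 2179 ovary reads and were 11.0-fold higher in ovary (95% interval 9.35 to 13.1). The 3 unigenes of mcm6l are numbered in a row. Unigene_14048 had 89 testis and 842 ovary reads, 7.10-fold higher in ovary (95% interval 5.70 to 8.93). Unigene_14047 was close to it with 73 testis and 803 ovary reads, 8.25-fold (95% interval 6.49 to 10.6). Unigene_14046 stood apart with 1 testis read and 375 ovary reads, 281-fold higher in ovary (95% interval 50.2 to 11138), and it alone of the 3 is in the authors' ovary list. Summed, mcm6l had 163 testis reads and 2020 ovary reads, 9.29-fold higher in ovary (95% interval 7.92 to 11.0). All these directions held under the 4 scalings.

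The remaining subunits differed less. The single unigene of mcm4 (Unigene_71926) had 1223 testis and 1657 ovary reads, and its interval held the median ratio (1.02-fold, 95% interval 0.943 to 1.09). For mcm7 (Unigene_17776) there were 1416 testis and 2629 ovary reads, 1.39-fold higher in ovary (95% interval 1.30 to 1.49), with a direction that changed under equal total reads. The other mcm2 unigene (Unigene_17460) had 101 testis and 282 ovary reads, 2.09-fold higher in ovary (95% interval 1.66 to 2.66). Among the mcm5 unigenes the best covered (Unigene_17291) had 643 testis and 1761 ovary reads, 2.05-fold higher in ovary (95% interval 1.88 to 2.25). Unigene_71274 had 80 testis and 65 ovary reads. A further pair, Unigene_64658 with 41 testis and 20 ovary reads and Unigene_64659 with 40 testis and 47 ovary reads, also carries the heat shock symbol hsp70.1, so which gene they stand for is uncertain.

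With the forms of a subunit added together, the extremes closed up. The mcm6 and mcm6l unigenes together had 653 testis and 2024 ovary reads, 2.32-fold higher in ovary (95% interval 2.13 to 2.54). Together mcm3 and mcm3l had 609 testis and 2187 ovary reads, 2.69-fold higher in ovary (95% interval 2.46 to 2.95). Both mcm2 unigenes had 442 testis and 311 ovary reads, 1.89-fold higher in testis (95% interval 1.64 to 2.198). The 4 mcm5 unigenes had 804 testis and 1893 ovary reads, 1.77-fold higher in ovary (95% interval 1.63 to 1.92). This total includes Unigene_64658 and Unigene_64659, whose gene is uncertain. The 6 subunits thus spanned from 1.89-fold higher in testis to 2.69-fold higher in ovary. Single unigenes spanned from 163-fold higher in testis to 281-fold higher in ovary. A ratio of summed reads always lies between the ratios of its parts, so a narrower span was fixed in advance. At the ends of the wider span, mcm6 is a member through the authors' testis list alone, and mcm6l Unigene_14046 had 1 testis read.

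The share of a subunit's reads that each form took does not depend on how the libraries are scaled. It does depend on unigene lengths, which were not used. The shares therefore do not say which form was the more abundant within a library. In testis, mcm6 took 75.0% of the mcm6 and mcm6l reads (490 of 653, 95% interval 71.5 to 78.3), against 0.198% in ovary (4 of 2024, 95% interval 0.0539 to 0.505). For mcm3 among mcm3 and mcm3l the share was 75.7% in testis (461 of 609, 95% interval 72.1 to 79.1), against 0.366% in ovary (8 of 2187, 95% interval 0.158 to 0.719). Unigene_71827 took 77.1% of the mcm2 reads in testis (341 of 442, 95% interval 72.9 to 81.0), against 9.32% in ovary (29 of 311, 95% interval 6.33 to 13.1). Entry through the authors' testis list fixed the direction of mcm3 and mcm6 between the tissues, so their shares are given as a description. The mcm2 unigene did not enter that way, but its form was taken as the one with the higher testis to ovary ratio. Near-identical copies can exchange reads, and whether the mcm2 unigenes are copies of the duplicated carp genome or pieces of a transcript was not tested.

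**Figure D2:**
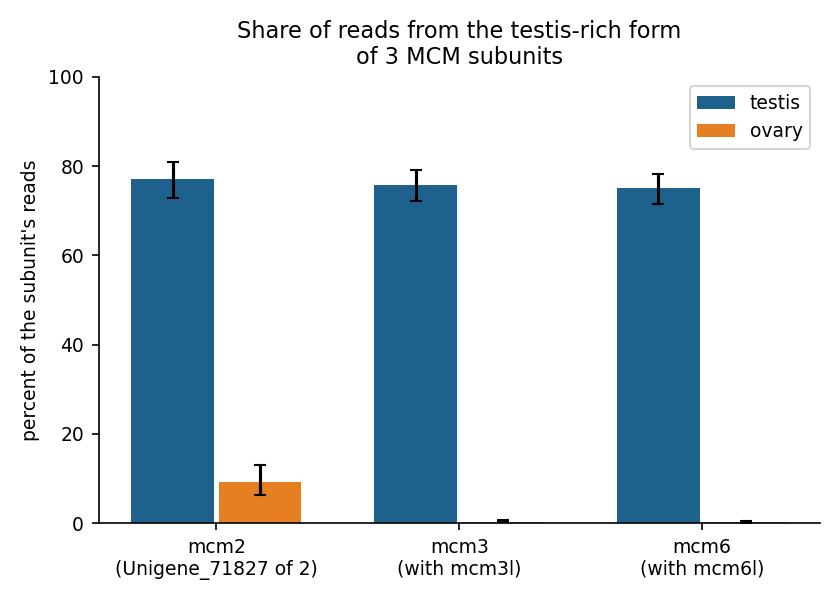
Percent of a subunit's reads that came from mcm2 Unigene_71827, from mcm3 and from mcm6, in the testis library (left bars) and the ovary library (right bars), with exact 95% binomial intervals. The testis bars stand at 77.1%, 75.7% and 75.0%, the ovary bars at 9.32%, 0.366% and 0.198%.

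Shares of single unigenes within a symbol were set side by side for the 14 symbols that had several unigenes of at least 50 reads. The unigene with the widest shift was taken for each symbol. With 1 unigene each, mcm3 and mcm6 are not in this ranking. For mcm2 the shift, 67.8 percentage points, was the widest of the 14. For pole3 the share of Unigene_14821 was 2.78% in testis and 58.6% in ovary. Within mcm9, Unigene_4584 took 41.9% in testis and 75.2% in ovary. At the other end, Unigene_17078 of rrm2 took 15.2% in testis and 13.8% in ovary.

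The origin recognition complex, which marks where replication starts, lay on the ovary side of the median in 8 of its 10 unigenes, with a median log2 difference of -0.74. At least 4-fold apart were 0 in testis and 4 in ovary, where 13.8% and 11.2% of all unigenes were, and of so few unigenes 0 is near the background. For orc3 (Unigene_18470) there were 111 testis and 808 ovary reads, 5.46-fold higher in ovary (95% interval 4.47 to 6.72). The 3 orc6 unigenes together had 246 testis and 994 ovary reads, 3.03-fold higher in ovary (95% interval 2.63 to 3.50), and those of orc1, the subunit related to Cdc6, 100 testis and 504 ovary reads, 3.78-fold (95% interval 3.04 to 4.73). The other subunits lay nearer to the median, and the group ran from -2.45 to 0.45 on the log2 scale. Transcripts of orc2 had 218 testis and 240 ovary reads, 1.21-fold higher in testis (95% interval 1.004 to 1.46), and those of orc5 264 testis and 361 ovary reads, with the median ratio inside the interval. The values of orc4 were 181 testis and 370 ovary reads, 1.53-fold higher in ovary (95% interval 1.28 to 1.84). For orc2, orc4 and orc5 the direction changed with the scaling.

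The factors that start the helicase followed a similar spread. Transcripts of mcm10, which helps to open the loaded helicase, had 138 testis and 749 ovary reads over 2 unigenes, 4.07-fold higher in ovary (95% interval 3.39 to 4.92). Of the GINS subunits, gins3 had 64 testis and 407 ovary reads, 4.77-fold higher in ovary (95% interval 3.66 to 6.31). The other 2 GINS symbols differed less, with 251 testis and 389 ovary reads for gins2 and 155 testis and 381 ovary reads for gins4, 1.84-fold higher in ovary (95% interval 1.53 to 2.24). The genes gins1 and mcm8 were not analysed here. The mcm9 gene, whose product acts in DNA repair beside the replication fork, had 5 unigenes on both sides. Unigene_4584 had 49 testis and 194 ovary reads, while Unigene_53839 had 18 testis and 2 ovary reads and Unigene_53840 had 10 testis and 1 ovary reads. Summed, mcm9 had 117 testis and 258 ovary reads, 1.65-fold higher in ovary (95% interval 1.32 to 2.08), a direction that changed under equal total reads. The 4-fold calls of mcm9 toward testis thus came from low unigenes and ended when unigenes were summed.

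The primer-making enzymes and polymerase delta stayed within 4-fold of the median, though pold2 was past 4-fold toward ovary in the deposited values. None of the 6 unigenes of polymerase alpha and primase was 4-fold apart, and their log2 differences ran from -0.77 to 1.28. Both pola1 unigenes together, the catalytic subunit, had 448 testis and 780 ovary reads, 1.31-fold higher in ovary (95% interval 1.16 to 1.47), with a direction that changed under equal total reads. Their partner pola2 had 167 testis and 330 ovary reads, and the large primase subunit prim2 had 151 testis and 320 ovary reads. For prim1, the small primase subunit, there were 166 testis and 197 ovary reads, with the median ratio inside the interval. The 5 unigenes of polymerase delta ran from -1.41 to 0.78. Its subunit pold2 had 183 testis and 647 ovary reads, 2.65-fold higher in ovary (95% interval 2.25 to 3.14). The catalytic subunit pold1 had 370 testis and 712 ovary reads, 1.44-fold (95% interval 1.27 to 1.64), and its direction changed under equal total reads. Within pold3 the most testis-sided unigene, Unigene_65500, had 97 testis and 75 ovary reads, against 67 testis and 154 ovary reads for Unigene_15720.

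**Figure D3:**
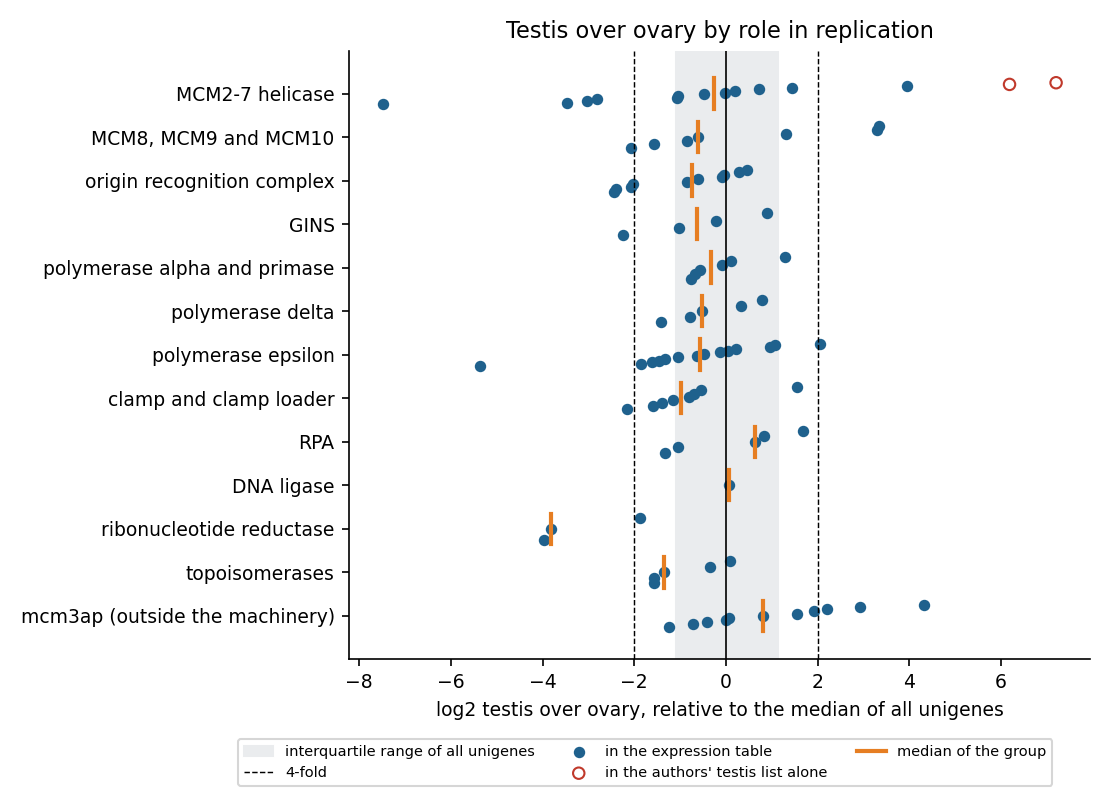
Log2 testis over ovary relative to the median of all unigenes for each member, by role, with the median of each group, the interquartile range of all unigenes in grey and dashed lines at 4-fold. Open circles are mcm3 and mcm6, found in the authors' testis list alone, and the groups other than the helicase, polymerase epsilon and ribonucleotide reductase stay within the range from -2.45 to 4.32.

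Polymerase epsilon, which copies the leading strand, had 14 unigenes, 5 above and 9 below the median, from -5.36 to 2.05 on the log2 scale. The catalytic subunit pole was split over 8 unigenes that together had 165 testis and 442 ovary reads, 2.01-fold higher in ovary (95% interval 1.68 to 2.42). Only Unigene_27896 of pole passed 4-fold toward testis, with 7 testis and 2 ovary reads and an interval that held the median ratio. The small subunit pole3, a histone-fold protein, had the second largest difference toward ovary. Its Unigene_14821 had 9 testis reads and 523 ovary reads, 43.6-fold higher in ovary (95% interval 22.8 to 95.8), and is in the authors' ovary list. The next unigene in number, Unigene_14822, had 256 testis and 329 ovary reads, 1.04-fold higher in testis with the median ratio inside the interval (95% interval 0.878 to 1.22). Over its 3 unigenes pole3 had 324 testis and 892 ovary reads, 2.06-fold higher in ovary (95% interval 1.82 to 2.35). The partner subunit pole4 had 214 testis and 473 ovary reads, 1.66-fold higher in ovary (95% interval 1.41 to 1.96), and pole2 had 266 testis and 553 ovary reads, 1.56-fold (95% interval 1.34 to 1.81). Under equal total reads the direction of pole2 and pole4 changed.

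The sliding clamp and its loader were mostly on the ovary side, with 7 of 8 unigenes below the median. The clamp gene pcna, a common marker of proliferating cells, had 561 testis and 1212 ovary reads, 1.62-fold higher in ovary (95% interval 1.46 to 1.79), with a direction that changed under equal total reads. Among the loader subunits, rfc3 had 148 testis and 886 ovary reads, 4.49-fold higher in ovary (95% interval 3.77 to 5.38). The loader genes rfc2, with 189 testis and 443 ovary reads, rfc4, with 461 testis and 893 ovary reads, and rfc5, with 129 testis and 450 ovary reads, were also on the ovary side, by 1.45-fold for rfc4 up to 2.62-fold for rfc5, and that of rfc4 changed under equal total reads. Summed, the large subunit rfc1 was the exception, with 292 testis and 162 ovary reads over 3 unigenes. Its best covered unigene, Unigene_70862, had 283 testis and 129 ovary reads, 2.92-fold higher in testis (95% interval 2.37 to 3.63). The direction of that unigene held under the 4 scalings. The other rfc1 unigenes lay on the ovary side, with the median ratio inside their intervals. Unigene_17734 had 3 testis and 14 ovary reads, and Unigene_17735 had 6 testis and 19 ovary reads.

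RPA, the single-strand binding complex, differed by subunit. The large subunit rpa1 had 2393 testis and 1463 ovary reads over 2 unigenes, 2.18-fold higher in testis (95% interval 2.04 to 2.33). Its Unigene_71178 had 1335 testis and 550 ovary reads, and Unigene_71177 had 1058 testis and 913 ovary reads, the second with a direction that turned in the deposited values. The middle subunit rpa2 had 716 testis and 532 ovary reads, 1.79-fold higher in testis (95% interval 1.60 to 2.01). The small subunit rpa3 lay on the other side, with 272 testis and 819 ovary reads, 2.26-fold higher in ovary (95% interval 1.97 to 2.60). RPA also serves recombination and repair, which these totals do not separate from replication.

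Relative to the median, neither the ligase nor a topoisomerase was 4-fold apart, although top3a, top3b and top1mt were past 4-fold toward ovary in the deposited values. For lig1, which joins the fragments of the lagging strand, there were 395 testis and 499 ovary reads, with the median ratio inside the interval. The mitotic topoisomerase top2a had 529 testis and 659 ovary reads, also with the median ratio inside its interval. Lower in testis were top3b with 69 testis and 274 ovary reads, 2.98-fold higher in ovary (95% interval 2.28 to 3.94), and the mitochondrial top1mt with 113 testis and 448 ovary reads, 2.97-fold (95% interval 2.41 to 3.69). Between these lay top3a with 83 testis and 285 ovary reads and top1l with 189 testis and 323 ovary reads. The 11 unigenes of mcm3ap together had 303 testis and 160 ovary reads, 2.52-fold higher in testis (95% interval 2.08 to 3.08).

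Ribonucleotide reductase, the enzyme that supplies deoxynucleotides, had the lowest group median, -3.81 over 3 unigenes. Its small subunit rrm2 had the most reads of the machinery in ovary, but not in testis. Unigene_17079 had 859 testis and 18006 ovary reads, 15.7-fold higher in ovary (95% interval 14.7 to 16.9). Unigene_17078 had 154 testis and 2886 ovary reads, 14.1-fold (95% interval 11.9 to 16.6), and the 2 intervals overlap. The large subunit rrm1 had 402 testis and 1966 ovary reads, 3.67-fold higher in ovary (95% interval 3.29 to 4.09). In all, rrm2 made up 5.65% of the machinery's testis reads and 38.6% of its ovary reads. The machinery took 0.931% of all testis reads and 1.26% of all ovary reads. Without rrm2 it took 0.878% in testis and 0.772% in ovary, so the order of these totals rested on rrm2.

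Other genes of the pathway were taken from lists drawn up with earlier results of these data known. Other replication genes, 28 of 35 listed symbols, had 76 unigenes that reached 5 units in either library. Of these, 1 was higher in testis by 4-fold or more and 10, or 13.2%, were higher in ovary, where 13.8% and 11.2% of all unigenes were, so the ovary count is near the background. The median log2 difference was -0.41, against -0.02 over all unigenes. The loader cdc6 had 51 testis and 615 ovary reads in Unigene_19147, 9.04-fold higher in ovary (95% interval 6.79 to 12.3). Geminin, gmnn, which blocks loading through Cdt1, had 153 testis and 1830 ovary reads in Unigene_66225, 8.97-fold (95% interval 7.60 to 10.6). The 1 on the testis side was ticrr, needed to start replication, with 27 testis and 3 ovary reads in Unigene_54463. Over its 10 unigenes ticrr had 246 testis and 208 ovary reads, 1.58-fold higher in testis (95% interval 1.31 to 1.91), with the opposite direction as deposited, so the 4-fold call ended when unigenes were summed. The list median was 0.34 with equal total reads, where that of all unigenes was 0.75.

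Genes of nucleotide supply, 10 of 15 listed symbols, had 22 such unigenes, 0 higher in testis by that margin and 6, or 27.3%, in ovary, and a median of -0.93. Thymidine kinase tk1 had 29 testis and 428 ovary reads, 11.1-fold higher in ovary (95% interval 7.60 to 16.7), and the dUTPase gene dut had 100 testis and 1094 ovary reads in Unigene_13630, 8.21-fold (95% interval 6.68 to 10.2). Replication-coupled chromatin assembly, 9 of 13 listed symbols, had 20 unigenes, 0 on the testis side and 8, or 40.0%, on the ovary side by that margin, and a median of -0.78. Those 8 were all unigenes of nasp, slbp2 and dnmt1, and the other measured symbols had none. The shares of all unigenes were again 13.8% toward testis and 11.2% toward ovary. The histone mRNA binding gene slbp2 led the list, with 323 testis and 5206 ovary reads in Unigene_15981, 12.1-fold higher in ovary (95% interval 10.8 to 13.6), followed by the histone chaperone nasp with 274 testis and 3228 ovary reads in Unigene_70800.

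**Figure D4:**
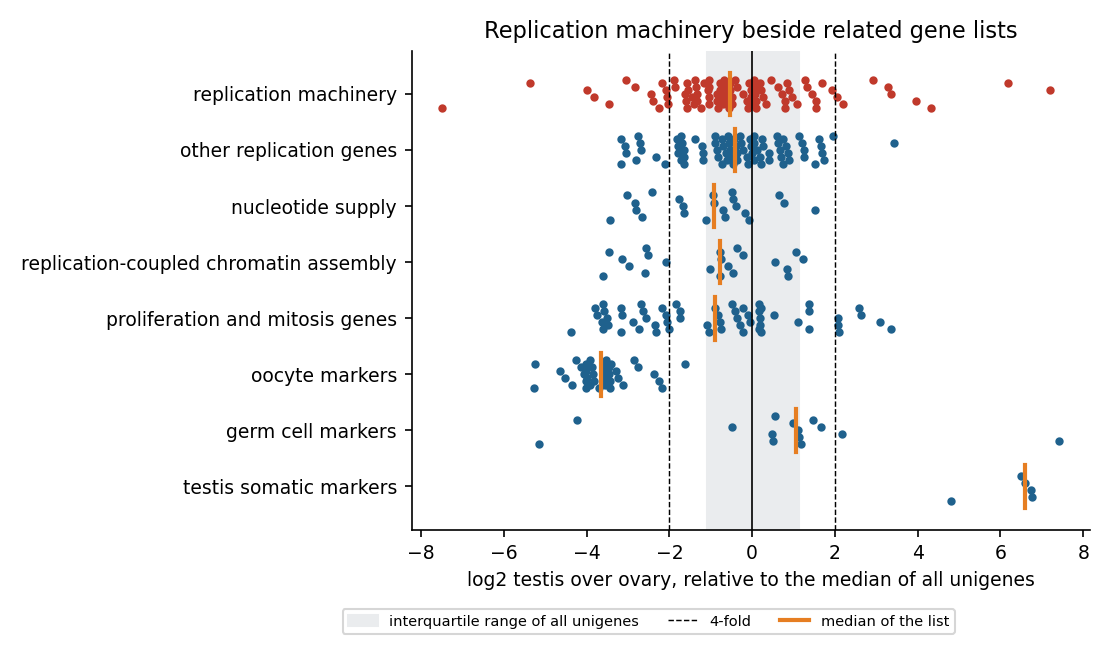
Log2 testis over ovary relative to the median of all unigenes for the replication machinery (top row), related gene lists and marker lists, 1 point per unigene, with the list medians over unigenes of at least 5 units, the interquartile range of all unigenes in grey and dashed lines at 4-fold. The machinery has a median of -0.54, the oocyte markers lie at -3.66 and the testis somatic markers at 6.59.

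Markers of the cell types lay on different sides. These lists too, that of the oocyte markers included, were drawn up with earlier results of these data known. Their directions are therefore given as a description. Oocyte markers were measured for 16 of 27 symbols in 38 unigenes. All 38 lay on the ovary side of the median, at -3.66 in the middle. They summed to 16333 testis reads, or 0.848% of all testis reads, and 269362 ovary reads, or 6.25% of all ovary reads. None was at 0 in either library, which holds for every unigene listed. Testis somatic markers were measured for 5 of 13 symbols and summed to 2303 testis reads and 32 ovary reads, but all 5 are in the authors' testis list. Germ cell markers, 14 unigenes of 5 symbols out of 17, summed to 5832 testis reads and 5773 ovary reads with a median of 1.05. They held both sycp1 with 183 testis reads and 1 ovary read and nanos3 with 49 testis and 2324 ovary reads in Unigene_15713. The authors' testis list holds sycp1, which fixed its direction. Markers of blood, muscle and liver, 12 unigenes of 8 symbols out of 20, summed to 144 testis reads and 1557 ovary reads with a median of -2.04. The part of oocyte or other cell content in the replication differences was not tested.

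Testis to ovary ratios also differed along the numbering of the unigenes. As deposited, the median log2 ratio was -1.69 over the 11904 unigenes with numbers under 23700, and 0.31 over the 10730 from there on. The number 23700 was picked as the cut that best split these same ratios, so the gap between the ranges describes a fitted cut. The machinery had 54 unigenes in the lower range, with a median of -1.88, and 39 in the upper range, with a median of -0.04. Relative to its own range, the machinery was at -0.19 in the lower range and -0.36 in the upper. The testis-rich mcm2, mcm3 and mcm6 unigenes are numbered high and the ovary-rich mcm3l, mcm6l, pole3 and rrm2 low, while rrm1, also ovary-rich, is numbered high. Set against the 501 unigenes nearest in number, mcm6 was at 6.23, mcm3 at 5.02, mcm2 Unigene_71827 at 2.84, mcm3l at -2.41, mcm6l Unigene_14046 at -6.46, pole3 Unigene_14821 at -4.32, rrm2 Unigene_17079 at -3.01 and rrm1 at -2.97 on the log2 scale. By that measure 7 members were higher in testis by 4-fold or more, where 5.52% of all unigenes were, and 10 in ovary, where 7.04% were. Of the 9 members 4-fold toward testis by the single median, 6 were so by this measure too, and of the 14 toward ovary, 7. Those under 4-fold by this measure were mcm10 at -1.05, orc1 Unigene_18673 at -1.19, rfc3 at -1.19, gins3 at -1.43, orc6 Unigene_17559 at -1.47, orc3 at -1.57 and mcm6l Unigene_14048 at -1.79 on the ovary side, and pole Unigene_27896 and 2 of mcm3ap on the testis side. Past 4-fold by this measure alone were rrm1, rfc5 and a gins4 unigene toward ovary and another gins4 unigene toward testis. The sources used here do not say what the numbering stands for, and its part in the differences was not tested.

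**Figure D5:**
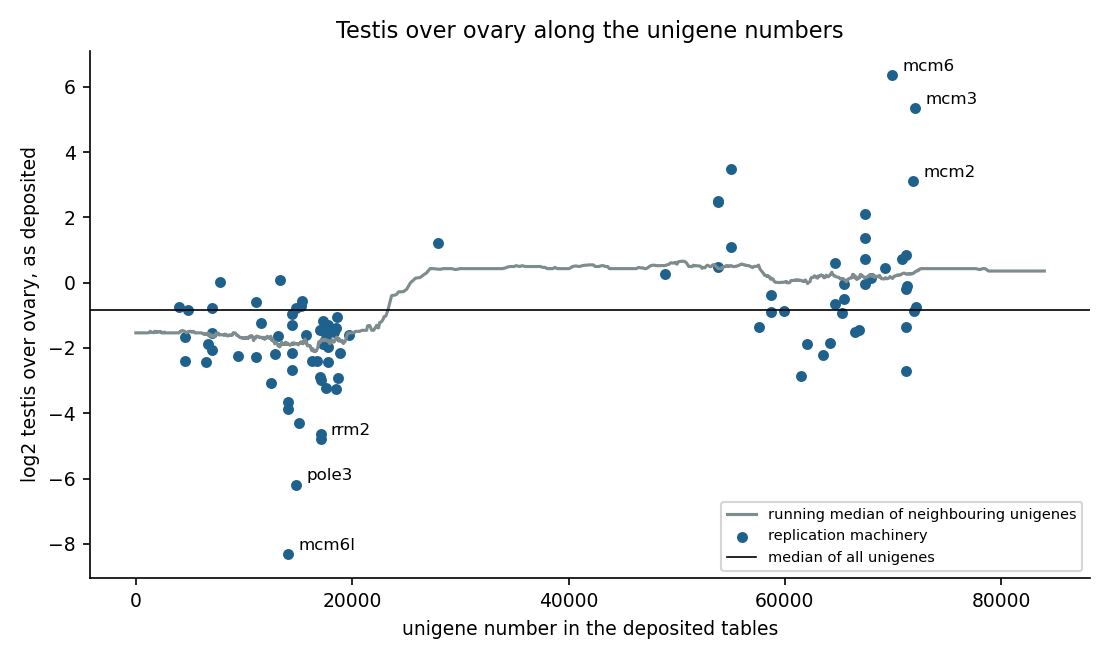
Log2 testis over ovary as deposited against the unigene number, for the 93 members (points), with the running median of 501 unigenes (grey line) and the median of all unigenes (black line at -0.83). The grey line steps up near number 23700, and mcm6, mcm3 and mcm2 lie above it as mcm6l, pole3 and rrm2 lie below it.

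The authors' deposited tables give a p-value per unigene with no stated method. In the authors' deposited table of expression, 2 of the 91 members had a p under 0.05, where 0.743% of all its unigenes did. These values in the authors' deposited table were 0.00498 for mcm6l Unigene_14046 and 0.0257 for pole3 Unigene_14821. The authors' deposited table of testis-higher unigenes gives 0.0424 for mcm6 and 0.0452 for mcm3, which are members through that list. The authors' deposited table of expression gives 0.809 for rrm2 Unigene_17079, the best covered member, and 0.198 for mcm2 Unigene_71827.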

How the data were processed

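The deposited tables, per the file headers, give a value per library for each unigene, with a log2 fold change of column B over column A and a p-value. Aligner, counting tool, genome build and test were not given in the sources used here. In the deposited files the library values are a signal: they come in steps of 1.73 units in testis and 2.31 units in ovary, each taken as 1 read, and were whole within 0.01 read for 22633 testis and 22632 ovary values of 22634. The product of these steps, 4, would also fit steps of 2 reads with size factors that multiply to 1, which was not tested. The deposited log2 fold change and p-value are the authors' own.

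The columns name no tissue. Testis was read from column B, where all 171 unigenes of the authors' testis list have their higher value, and ovary from column A, where all 127 unigenes of their ovary list do. The 147 unigenes found in the testis list alone were added to the table's 22487. Of the 48 member symbols, 22 matched the RefSeq annotation of assembly ASM1834038v1, used for names only. The members, lists and naming rule were chosen with earlier results of these data known. Named were all unigenes of the MCM helicase, the highest, lowest and best covered unigene of every other role, members in either of the authors' lists, and up to 3 genes per list. Genes and unigenes given beyond that rule were chosen after their values were seen.

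For a log2 difference, 1 deposited unit was added to each library's value and the log2 ratio of testis to ovary was taken, minus the median over all unigenes, and a 4-fold call also needed 5 units in the higher library. Folds are ratios of reads over the median ratio, with exact intervals at 95%. No count model was fitted to the recovered reads, since 1 library per tissue leaves no spread between replicates. The calculation was tested on simulated data. Python 3.11.15, pandas 2.3.3, numpy 2.4.6, scipy 1.17.1 and, for the trimmed mean, edgeR 4.0.16 in R 4.3.3 were used.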

Additional observations from a re-analysis of the deposited data

How the results depend on the processing

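Scaling, threshold and the summing of unigenes all moved the counts. At least 4-fold higher in testis were 9 members and in ovary 14. In ovary the count was 28 as deposited, where 23.2% of all unigenes were called, and 7 with equal total reads, where 5.46% were. Equal total reads gave 16 in testis, where 23.2% of all unigenes were called. A 2-fold threshold gave 17 in testis and 34 in ovary, where 27.3% and 27.2% of all unigenes were called, and an 8-fold threshold 6 in ovary, where 4.38% were. The shares of all unigenes thus moved too. Summing the unigenes of a symbol left 2 in testis and 5 in ovary among 48 symbols. These calls are relative to the median of symbols, and 7.98% and 10.6% of all symbols were called. The 2 in testis were mcm3 and mcm6, which are members only through the authors' testis list. Matches that are not replication proteins were mcm3ap, mcm9, top3a, top3b and top1mt. Without them and with unigenes not summed, 4 of 74 members remained in testis, where 13.8% of all unigenes were called. The 4 were again mcm3 and mcm6, with mcm2 Unigene_71827 and pole Unigene_27896, the last with 7 testis and 2 ovary reads. The members' median was -1.37 as deposited and turned to 0.21 with equal total reads, where the median of all unigenes was -0.83 and 0.75. For the other replication genes, 10 in ovary became 23 as deposited, 6 with equal total reads and 4 with symbols summed, and 1 in testis became 7 with equal total reads and 0 with symbols summed. Their median was -1.24 as deposited and turned to 0.34 with equal total reads. Of the 44 named unigenes, 2 with a 4-fold call reversed when unigenes of their symbol were summed, mcm9 Unigene_53839 to -0.49 and pole Unigene_27896 to -0.77. Some named unigenes under 4-fold also changed sign on summing, among them mcm2 Unigene_17460 from -1.06 to 1.15 and mcm5 Unigene_64658 from 1.44 to -0.59. These summed values are relative to the median of symbols, not to the median unigene used for the folds above. Over the 291 alternatives run for the 44 named unigenes, 156 stayed inside the counting interval and 133 moved outside it. Pseudocounts of 0.1 and 10, floors of 0 and 20 units, the trimmed mean and the table alone kept both member counts within 1.5 times and the sign of their median. No paired analysis was possible because each tissue has 1 library, and none could be left out. Precision is limited by low unigenes, down to 4 reads in all for a member.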

Other observations

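Genes of proliferation and mitosis, with their regulators, were listed beside the replication genes for comparison. Of 57 unigenes, from 23 of 29 listed symbols, 7, or 12.3%, were higher in testis by 4-fold or more, where 13.8% of all unigenes were, and 23, or 40.4%, in ovary, where 11.2% were, and their median log2 difference was -0.89. Toward testis were 3 unigenes of e2f3, a regulator of replication genes, none with more than 26 testis reads, 1 of e2f5, 2 of rb1 and 1 of mki67, which had 49 testis and 15 ovary reads in Unigene_72484. The other mki67 unigenes, among them Unigene_72486 with 284 testis and 146 ovary reads, were under 4-fold. Among the 23 toward ovary were unigenes of the motor gene kif11, with 95 testis and 1576 ovary reads in Unigene_19590, and of the survivin genes birc5a, with 32 testis and 578 ovary reads in Unigene_12663, and birc5b. The rest of the 23 are not named here.

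The deposited scaling widened the gap between the libraries. The step of the deposited values was 0.75 times as large in testis as in ovary, and the median ratio of testis to ovary reads was also 0.75. The median ratio of deposited values was therefore 0.562, farther from equal than the reads themselves. Whether the authors meant to scale the other way was not tested.

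Ratios of neighbouring unigenes of a symbol were compared pair by pair, without neighbours of different symbols as a reference. Over 2249 pairs with consecutive numbers, the same symbol and at least 50 reads each, the absolute difference in log2 ratio had a median of 0.54 and a 95th percentile of 2.26. The pole3 pair Unigene_14821 and Unigene_14822 differed by 5.41, a distance reached by 0.222% of the pairs, and mcm6l Unigene_14046 and Unigene_14047 by 4.45, reached by 0.445%. Both rrm2 unigenes differed by 0.17.

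In the authors' deposited table, p-values did not follow the fold alone. Among unigenes with a deposited log2 fold change of at least 4 in size, p was under 0.05 for 1 of 278 with 13 to 54 reads, 59 of 275 with 55 to 180 reads, 86 of 276 with 181 to 732 reads, and 17 of 277 with 736 to 70895 reads, where rrm2 Unigene_17079 lies.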
